A study of Mus musculus with 2 samples.

Results

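Keratins 7, 8, 18 and 19, the adhesion molecule EpCAM, the transcription factor SOX9 and E-cadherin were taken as markers of the bile duct epithelium. Keratins 8 and 18 were taken as markers of hepatocytes too, and the others need not be restricted to bile ducts. The genes Krt7, Krt8, Krt18, Krt19, Epcam, Sox9 and Cdh1 were taken from the array by their names in the wild-type scanner file. They are 7 of the array's 31881 genes and unnamed transcripts, with 8 of 39429 probes and 26 spots. Krt8 has 2 probes, and the Cdh1 and Sox9 probes are each spotted 10 times. The RNA came from liver sinusoidal endothelial cells (LSEC), which line the capillaries of the liver, prepared from 1 wild-type mouse and from 1 mouse of the obese ob/ob genotype, which carries a leptin mutation on both alleles. Both were males aged 8 weeks. The labels give no strain for either mouse. Livers were digested with collagenase and the cells kept overnight in medium with serum, in both groups, before total RNA was labelled with Cy3. Each group is 1 mouse on 1 array, so no difference below has a replicate check and none was tested.

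Keratins are intermediate filament proteins that assemble only as pairs of a type I and a type II chain. Krt8 (type II) and Krt18 (type I) form the one pair of the adult hepatocyte, while cholangiocytes, the cells of the bile duct, add the pair Krt7 (type II) and Krt19 (type I). EpCAM and E-cadherin hold epithelial cells to each other, and SOX9 is a transcription factor of the bile duct lineage that activated stellate cells also express. Endothelial cells are built on vimentin filaments and VE-cadherin, the product of Cdh5, in place of keratins and E-cadherin.

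The probes are shown because the members differ in how many sites of the transcript report them. All positions are those of the array's file on mouse build mm9. The Krt7 probe lies at chr15:101253718-101253777 (plus strand) and the Krt19 probe at chr11:100002392-100002451 (minus strand). The Krt8 probe named by its RefSeq transcript lies at chr15:101828827-101828886 (minus strand) and the Krt18 probe at chr15:101862341-101862400 (plus strand). The Epcam probe has 60 bases over 829 bases of genome, chr17:88048972-88049800 (plus strand), so it crosses an exon junction. Capitals mark the stop codon that ends the longest open stretch of the Krt18 probe, which is shown up to there.
Krt7: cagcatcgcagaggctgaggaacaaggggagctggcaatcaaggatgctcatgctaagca
Krt19: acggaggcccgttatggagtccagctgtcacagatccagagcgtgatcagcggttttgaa
Krt8: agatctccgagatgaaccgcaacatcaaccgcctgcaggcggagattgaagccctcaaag
Krt18: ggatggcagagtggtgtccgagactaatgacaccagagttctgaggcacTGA
Epcam: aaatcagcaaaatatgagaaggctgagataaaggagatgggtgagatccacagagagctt
Of these, the Krt7, Krt19, Krt8 and Epcam probes each hold at least 1 reading frame with no stop codon. The other Krt8 probe (chr15:101827138-101827197, minus strand) contains the polyadenylation signal AATAAA and so reads the 3′ end of the transcript. The Cdh1 probe lies at chr8:109193812-109193871 and the Sox9 probe at chr11:112648809-112648868, both on the plus strand.

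All 7 members were measured on the ob/ob array and 2 of them, Krt8 and Krt18, on the wild-type array. Measured means that the scanner software put more than 50% of the probe's spots well above background. Krt8 and Krt18 were both at least 2-fold higher on the ob/ob array. The other 5, Krt7, Krt19, Epcam, Cdh1 and Sox9, were measured in ob/ob alone, so they could not be called lower there. Over the whole array 6.86% of genes and unnamed transcripts were measured in ob/ob alone, 0.866% in wild-type alone and 35.4% in neither. Among the 18135 genes measured on both arrays, 1055 (5.82%) were higher by 2-fold or more and 415 (2.29%) were lower by as much. Those counts were 766 and 976 with scaling on the array median. The median difference of all these genes was -0.12, each difference being the log2 value of ob/ob less that of wild-type, with each array divided by its 75th percentile.

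The ob/ob array was brighter, with a 75th percentile of 1430 against 989, and had 64.8% of its spots well above background against 58.6%. The local background was alike, with medians of 60.0 on the ob/ob and 63.0 on the wild-type array, and around the members' spots it lay between 56.0 and 67.5 on both arrays. Of 15 LSEC markers, 15 were measured on both arrays and 15 were within 2-fold, with a median of -0.18.

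**Figure D1:**
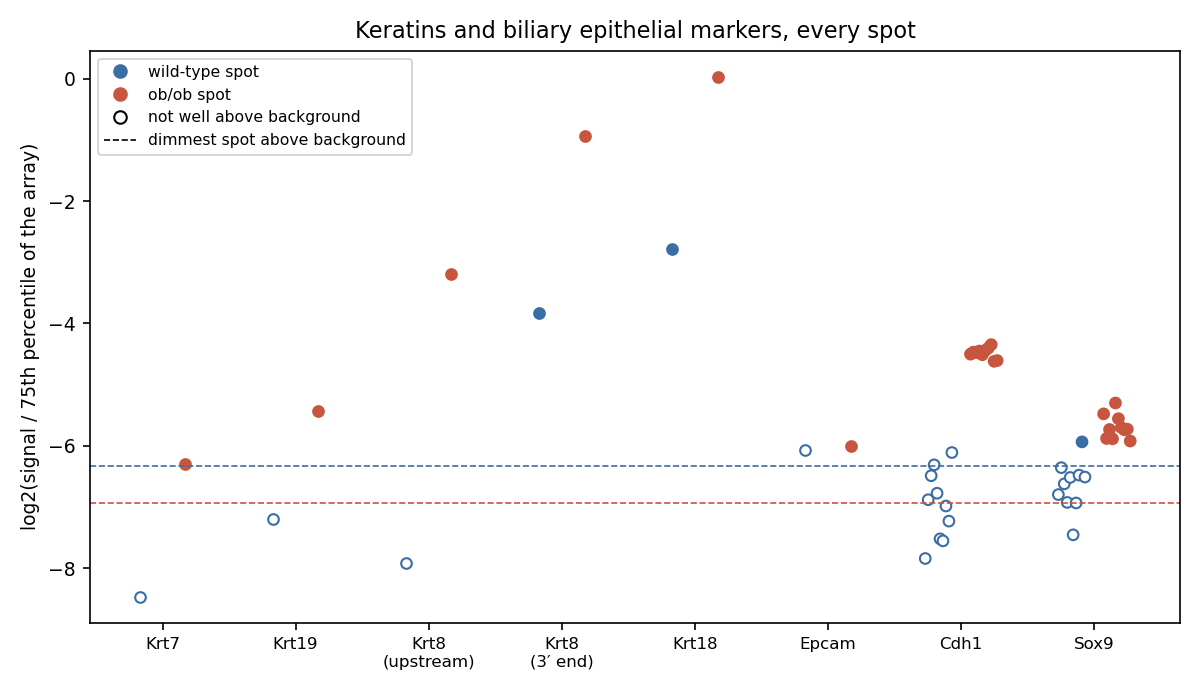
Signal of every spot of the 8 member probes, as log2 of the signal over the array's 75th percentile, in wild-type (blue) and ob/ob (red). Filled points were well above background, open points were not, and dashed lines give the dimmest spot above background on each array. In each probe the red points lie above the blue ones, by very little for Epcam. Only points of the same probe can be compared.

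Krt8 and Krt18, the keratin pair of hepatocytes, were the only members with a measured difference. The 3′-end probe of Krt8 read 69.5 (wild-type) and 749 (ob/ob) in signal. This is a log2 difference of 2.90, or 7.45-fold, where the error model of the scanner software gave an SD of 0.21. Krt18 had signals of 144 and 1460, a difference of 2.81 or 7.0-fold, again with an SD of 0.21. The differences of these probes lay closer to each other than that SD, but not in either normexp setting. Both were far outside the bulk of the array, with 99.4% of genes measured on both arrays below Krt8 and 99.3% below Krt18. Krt8 ranked 115 and Krt18 127 from the highest.

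The second Krt8 probe, which reads an upstream part of the transcript, did not clear background in the wild-type group. Its signals were 4.11 and 156, brighter in ob/ob by at least 8.74-fold (a log2 bound of 0.88, under 2-fold, with normexp and quantile normalization). Such a bound sets the brighter value against the higher of the dim probe's own signal and the dimmest signal above background on its array, 12.3 on the wild-type array. A bound is not a strict minimum, since some spots above 12.3 were not called above background, such as wild-type Cdh1 spots of 12.5 and 14.3. Both Krt8 probes gave the same direction. The sizes for the pair depended on how background was removed. With normexp correction and the 75th percentile the difference was 1.31 for Krt8 and 1.76 for Krt18, and with normexp and quantile normalization 1.75 and 2.01. Both remained at least 2-fold higher in each of the 9 alternatives.

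**Figure D2:**
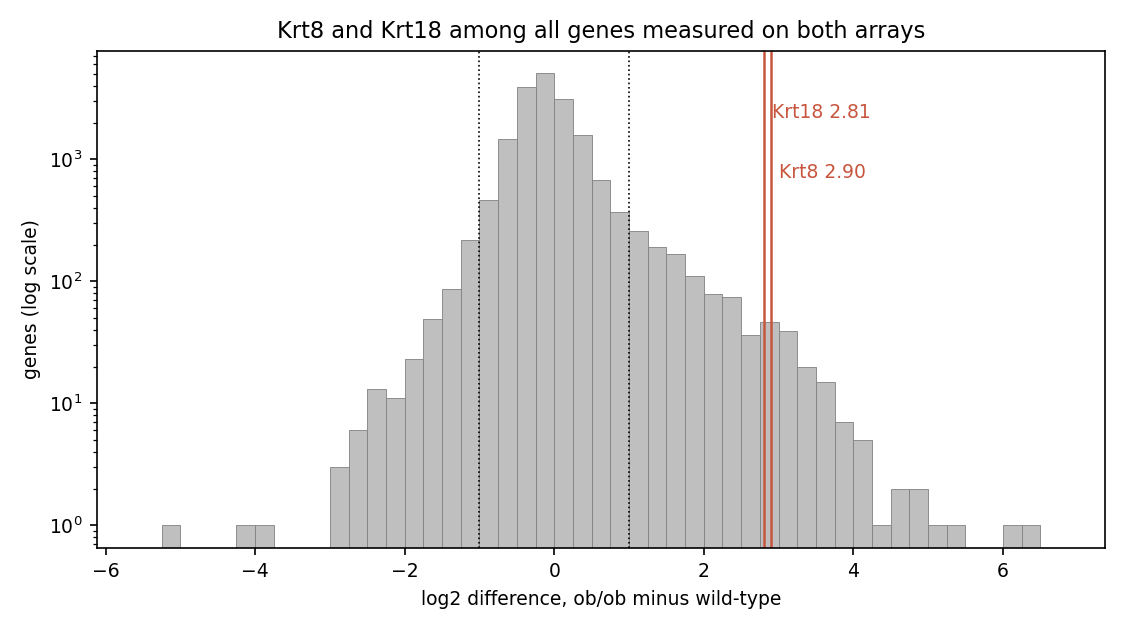
Number of genes (log scale) by log2 difference, ob/ob minus wild-type, for the 18135 genes measured on both arrays. Dotted lines mark 2-fold, and red lines mark Krt18 at 2.81 and Krt8 at 2.90, in the upper tail.

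The biliary keratins were not measured on the wild-type array. Krt7, the type II keratin of bile ducts, read 2.80 (wild-type) and 18.1 (ob/ob). Krt19, its type I partner, had signals of 6.73 and 33.3. Both were well above background in ob/ob cells alone, and the Krt7 signal there was close to the dimmest called above background, 11.7. The bounds were at least 1.01-fold for Krt7 and at least 1.87-fold for Krt19. The Krt19 bound was above that of 78.3% of the genes measured in ob/ob alone. Neither bound reached 2-fold, which 19.5% of the 2187 genes measured in ob/ob alone did. Krt19 just passed it, at a log2 bound of 1.01, with the 75th percentile taken over spots above background on both arrays. Scaling on the array median left no bound for Krt7. The signals as they stand, without regard to background, differed by 2.16 for Krt7 and 1.77 for Krt19, with error-model SDs of 1.46 and 0.58.

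Of the surface proteins, E-cadherin stood clear of background in ob/ob cells and EpCAM hardly did. The 10 Cdh1 spots had a lowest, median and highest signal of 4.31, 8.11 and 14.3 (wild-type) and of 58.2, 64.4 and 70.3 (ob/ob). None of the 10 wild-type spots and each of the 10 ob/ob spots was well above background, and the signals did not overlap. The spots are repeats of 1 probe on 1 array and give no spread between mice. The bound for Cdh1 was at least 3.58-fold, above that of 92.1% of the genes measured in ob/ob alone. It was under 2-fold, to a log2 bound of 0.44, with normexp and quantile normalization. Normexp with the 75th percentile gave no bound for Cdh1. Epcam had signals of 14.7 and 22.4, brighter in ob/ob by at least 1.05-fold, which is less than its error-model SD of 0.39 on the log2 scale. For Epcam, detection on the ob/ob array thus came with no measurable difference in the scaled signal.

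Sox9, the transcription factor of the group, was near background on both arrays. Its 10 spots had a lowest, median and highest signal of 5.64, 10.4 and 16.2 (wild-type) and of 23.6, 26.9 and 36.3 (ob/ob). In wild-type cells 1 of the 10 spots was well above background, and in ob/ob cells all 10 were. The scaled signals did not overlap, but the brightest wild-type spot lay just under the dimmest ob/ob spot. The sizes of the spot differences are not measured where the wild-type spot is not above background. The bound for Sox9 was at least 1.55-fold, under the 2-fold threshold but above that of 71.4% of the genes measured in ob/ob alone. Counting differences and bounds together, 3 of the 7 members (Krt8, Krt18 and Cdh1) were brighter in ob/ob by at least 2-fold, where 7.19% of the genes measured on at least 1 array were. The members so counted were 4, with Krt19, where the 75th percentile was taken over spots above background on both arrays. In either normexp setting they were 2.

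Krt8 and Krt18 stood apart from the other keratins measured on both arrays. Of 52 keratin genes, both arrays measured 17, ob/ob alone 7, wild-type alone 1 and neither 27. Of the 17, Krt8 and Krt18 were at least 2-fold higher and Krt23 at least 2-fold lower. Krt23, a type I keratin, had signals of 655 and 455 and a difference of -1.06. The next highest was Krt85, a hair keratin, at 0.97, but a second Krt85 probe gave -0.23. The other type I keratins, 8 of 26 measured on both arrays, had a median of -0.041 and 0 were higher. The other type II keratins, 7 of 22 measured, had a median of 0.10, and 0 passed 2-fold in either direction. Krt79, which lies in the same chromosome 15 cluster as Krt8, differed by 0.52, and Krt5, the basal cell keratin, by -0.70. Krt85 passed 2-fold with the 75th percentile taken over spots above background on both arrays. Krt23 did not pass 2-fold lower there or with normexp and quantile normalization. With normexp and the 75th percentile 9 keratins were at least 2-fold lower, and the medians of the other type I and type II keratins were -1.08 and -1.46. Without the filter on dim probes 6 keratins were at least 2-fold higher, Krt8, Krt18, Krt7, Krt17, Krt19 and Krt72, and 3 were lower. Of those 6, only Krt8 and Krt18 were measured on both arrays, so the sizes for the others are not measured.

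**Figure D3:**
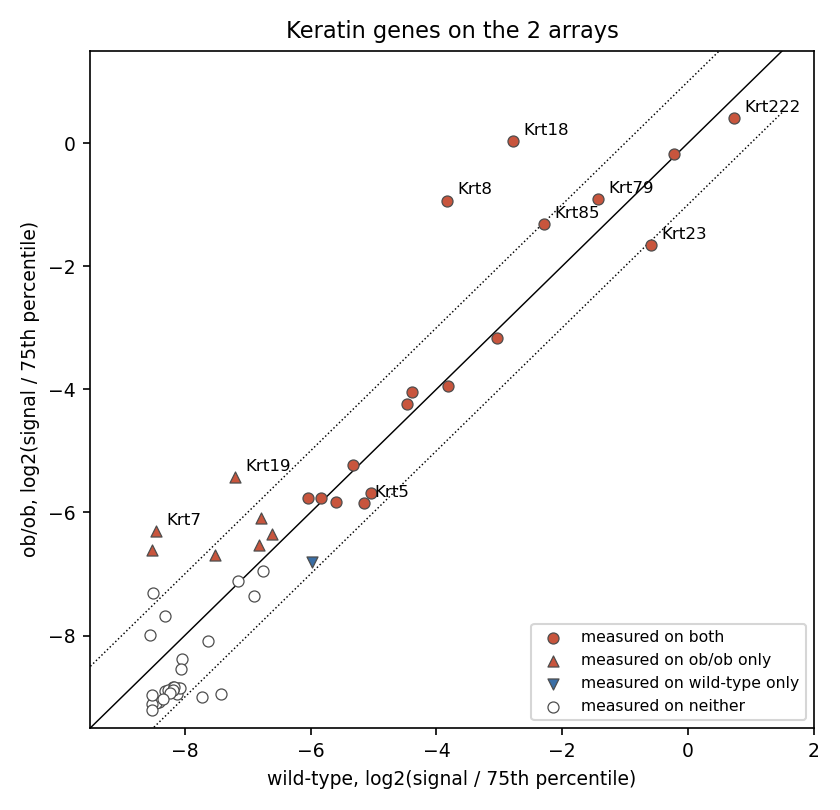
Scaled log2 signal of 52 keratin genes on the wild-type array (x axis) and the ob/ob array (y axis), by the array on which each was measured. The solid line is equality and dotted lines are 2-fold. Krt8 and Krt18 lie above the upper dotted line, Krt23 just under the lower one, and the other keratins measured on both arrays between them.

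Krt8 and Krt18 are separated by no other protein-coding gene in the RefSeq table (GRCm38.p6), where Krt18 is the type I gene at the end of the type II cluster. Because both were higher, the 250 bases before each start are shown, from RefSeq on GRCm38.p6. The Krt8 stretch is chr15:102004343-102004592 (minus strand) and the Krt18 stretch chr15:102027966-102028215 (plus strand). Capitals mark CAGGTG on either strand, a sequence that the E-cadherin repressors of the Snail and ZEB families bind.
Krt8: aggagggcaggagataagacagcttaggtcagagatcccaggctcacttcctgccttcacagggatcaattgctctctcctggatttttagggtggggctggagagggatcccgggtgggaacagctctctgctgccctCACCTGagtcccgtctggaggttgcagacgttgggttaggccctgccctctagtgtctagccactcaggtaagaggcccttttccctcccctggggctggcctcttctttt
Krt18: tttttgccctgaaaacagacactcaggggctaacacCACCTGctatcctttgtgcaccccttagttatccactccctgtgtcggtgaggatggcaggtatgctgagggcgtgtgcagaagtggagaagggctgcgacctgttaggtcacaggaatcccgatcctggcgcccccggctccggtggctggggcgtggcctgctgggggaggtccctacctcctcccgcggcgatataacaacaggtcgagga
Of the 7 members, 4 had an entry in the RefSeq promoter table: Krt7, Krt8, Krt18 and Epcam. CAGGTG was present in each of the 4 windows, and in 17.2% of all 32851 windows of the same length. It starts 111 bases before the start of Krt8 and 214 bases before that of Krt18. The GC box GGGCGG was found in the Krt7 and Epcam windows and in 32.7% of all. The AP-1 sequence TGANTCA, found in 6.75% of all windows, and the TATA sequence TATAAA, found in 12.4%, were in none of the 4. The motifs were searched on both strands and do not overlap each other in these windows. A match describes the letters and is not a measured binding site.

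Genes that work with keratins and E-cadherin mostly lay within 2-fold. Of 18 genes of desmosomes, the junctions to which keratins attach, and of keratin linkers, 7 were measured on both arrays, with 1 higher, 0 lower and a median of 0.019. The higher gene was the plakophilin Pkp2, with signals of 31.1 and 113 and a difference of 1.33, and with normexp and the 75th percentile 0 genes of the list were higher and 2 lower. Desmoplakin Dsp, which anchors keratins at the desmosome, and the desmosomal cadherins Dsg2 and Dsc2 did not clear background in either group. Perp, a desmosome-associated membrane protein, was brighter in ob/ob by at least 4.28-fold, with signals of 10.9 and 76.4. Of the 7 other intermediate filament genes that both arrays measured, 2 were higher and 0 lower (0 higher with normexp and the 75th percentile). They were desmin, Des, at 1.53 and synemin, Synm, at 1.28, and lamin B1, Lmnb1, differed by -0.92. Both desmin and synemin are filament proteins of stellate cells. The endothelial filament vimentin, Vim, differed by 0.27.

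Of 10 adherens junction genes, 9 were measured on both arrays, with 1 higher, 0 lower and a median of 0.20. The higher gene was N-cadherin, Cdh2, with signals of 457 and 1590 and a difference of 1.27, and its second probe gave 1.48. With scaling on the array median 0 genes of the list were higher and the median was -0.078. Normexp with the 75th percentile gave 0 higher and 1 lower. The catenins that bind cadherin tails were bright on both arrays. The α-catenin gene Ctnna1 differed by 0.33 and the p120 catenin gene Ctnnd1 by -0.60. VE-cadherin, Cdh5, had signals of 52171 and 55500 and differed by -0.44. Among cadherins Cdh1 and Cdh2 were brighter on the ob/ob array by at least 2-fold while Cdh5 was not.

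Epithelial tight junction genes differed in direction. The array holds 15, of which both groups measured 6, and these 6 were within 2-fold, with a median of -0.18. Claudin 7, Cldn7, a binding partner of EpCAM, had signals of 28.8 and 82.0 and differed by 0.98. Claudin 3, Cldn3, was brighter in ob/ob by at least 5.42-fold (signals 11 and 96.8). Cingulin, Cgn, was so by at least 2.44-fold (signals 9.40 and 43.5). Claudin 4, Cldn4, went the other way, with signals of 77.5 and 4.58, brighter in wild-type by at least 9.58-fold. Its second probe did not clear background in either group. The scaffold gene Tjp1, which endothelial cells also use, differed by -0.40. Of 14 epithelial transcription and splicing factors, 5 were measured on both arrays with 0 past 2-fold, and 7 were measured on neither. With normexp and the 75th percentile 3 of the 5 were lower, with a median of -1.28 in place of -0.018. Klf5 was brighter in ob/ob by at least 1.51-fold. The 6 genes of EpCAM-cleaving proteases were measured on both arrays, and 0 passed 2-fold (1 was lower by as much with normexp and the 75th percentile).

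E-cadherin repressors act on E-box sequences of the Cdh1 promoter. All 7 were measured in both groups, with 2 higher and 1 lower (1 higher and 0 lower in both normexp settings, and 0 lower in the authors' value table). Twist2 was higher at 1.72 and Snai1 at 1.38, while Twist1 differed by 0.43. Snai2 had signals of 2112 and 432, a difference of -2.82, but its wild-type spot lies in a patch of high local background, so its direction is not settled. Of 11 Notch and YAP genes, pathways known to act upstream of Sox9 in the bile duct, 10 were measured on both arrays, with 4 higher, 0 lower and a median of 0.63. The Notch ligand Jag1 was higher at 1.39 and the Notch target Hey1 at 1.08. The receptor Notch2 differed by 0.96, the Notch target Hes1 by 0.15 and the pathway gene Rbpj by -0.012. The YAP targets Ccn1 and Ankrd1 were higher at 1.41 and 1.29, whereas the YAP target Ccn2 differed by -0.63. Heyl, a Notch target, was brighter in ob/ob by at least 2.50-fold. Of 8 relatives and cartilage targets of Sox9, 2 were measured on both arrays and 5 on neither, and 0 passed 2-fold: Sox10 differed by -0.61 and aggrecan, Acan, by -0.11. Both were lower by at least 2-fold with normexp and the 75th percentile, with a median of -1.61.

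Keratins 8 and 18 collect with p62 and small heat shock proteins in Mallory-Denk bodies, the hepatocyte inclusions of steatohepatitis. The 7 other components listed were measured in both groups, with 1 higher and 0 lower, with a median of 0.41. The higher gene was the small heat shock protein Hspb8 at 1.81 (signals 114 and 578), which did not pass 2-fold with normexp and the 75th percentile. The p62 gene Sqstm1 differed by -0.67, Cryab by 0.79 (1.14, past 2-fold, by its second probe) and Hspa1a by 0.67.

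Markers of hepatocytes were higher together with the keratins. Of 25 hepatocyte markers, 21 were measured on both arrays and 18 of these were at least 2-fold higher, with 0 lower and a median of 2.59 (with normexp and the 75th percentile, 12 higher, 2 lower, median 1.44). The differences of Krt8 and Krt18 lay inside the range of this list, 0.16 to 3.79. They also lay inside those of the cholangiocyte (-0.73 to 3.73), stellate cell (0.13 to 2.92) and Kupffer cell (0.38 to 4.63) lists. The largest of the hepatocyte list were the cytochrome Cyp3a11 at 3.79 and the apolipoprotein Apob at 3.65. The hepatocyte transcription factor Hnf4a had signals of 42.9 and 146 and was higher at 1.24. The summed signal of the 24 hepatocyte markers on the array, each over the array's 75th percentile, was 7.94 (wild-type) and 50.5 (ob/ob). The part of hepatocyte RNA in the Krt8 and Krt18 difference was not tested. In RNA of a whole preparation, more cells of a type and more RNA per cell cannot be told apart.

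Cholangiocyte markers outside the 7 members differed among themselves. Of 23, 15 were measured on both arrays, with 5 higher, 0 lower and a median of 0.0081. Normexp with the 75th percentile made this 3 higher, 5 lower and a median of -0.44. In ob/ob alone 4 were measured and in wild-type alone 1. The sum of the 23 was 44.1 (wild-type) and 47.4 (ob/ob), of which the water channel Aqp1, which endothelial cells also express, made up 35.3 and 21.3. The sum of the other 22 was 8.79 and 26, or 2.96-fold higher in ob/ob. The 5 were osteopontin, Spp1, at 3.73, clusterin, Clu, at 2.77, Ambp at 2.40, Tm4sf4 at 2.28 and Bicc1 at 1.22. The higher sum of the 22 in ob/ob came from Clu, Spp1 and Ambp, whose signals were 1990 and 19700, 291 and 5580, and 531 and 4050. Clu and Ambp are also secreted by hepatocytes, and macrophages express Spp1. The chloride channel Cftr, the secretin receptor Sctr and the fibrocystin gene Pkhd1, picked from the same list, were dim and differed by -0.31, -0.11 and -0.43. Tspan8, Itgb4 and Cd24a of that list differed by 0.36, 0.27 and 0.0081, and 8 of the 15 differences were above 0. The other Sctr probes did not clear background in either group. The bile acid transporter Slc10a2 and the mucin Muc1 did not clear background in either group. Anxa13 was brighter in ob/ob by at least 2.28-fold, while Ggt1 was brighter in wild-type by at least 2.05-fold.

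Mesothelial cells of the liver surface express keratins 8, 18 and 19 as well. Of 10 mesothelial markers, 2 were measured on both arrays, Gpm6a at 0.64 and Cldn15 at 0.25, and 7 on neither. The defining markers Msln, Upk3b and Wt1 were among the 7, and the sums were 0.234 and 0.332. Stellate cell and fibroblast markers, among cells that can express Sox9, had 11 of 12 measured members higher and 0 lower (median 1.82, sums 9.37 and 37.2). With normexp and the 75th percentile 2 of the 12 were higher and the median was 0.47. The collagen Col3a1 was higher at 2.92 and the retinol-esterifying enzyme Lrat at 2.32. Kupffer cell and macrophage markers had 11 of 12 higher and 0 lower (median 2.09, sums 56.8 and 161), led by Timd4 at 4.63. The part of these cells, or of hepatocytes, in the Sox9 and Cdh1 signals was not tested.

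**Figure D4:**
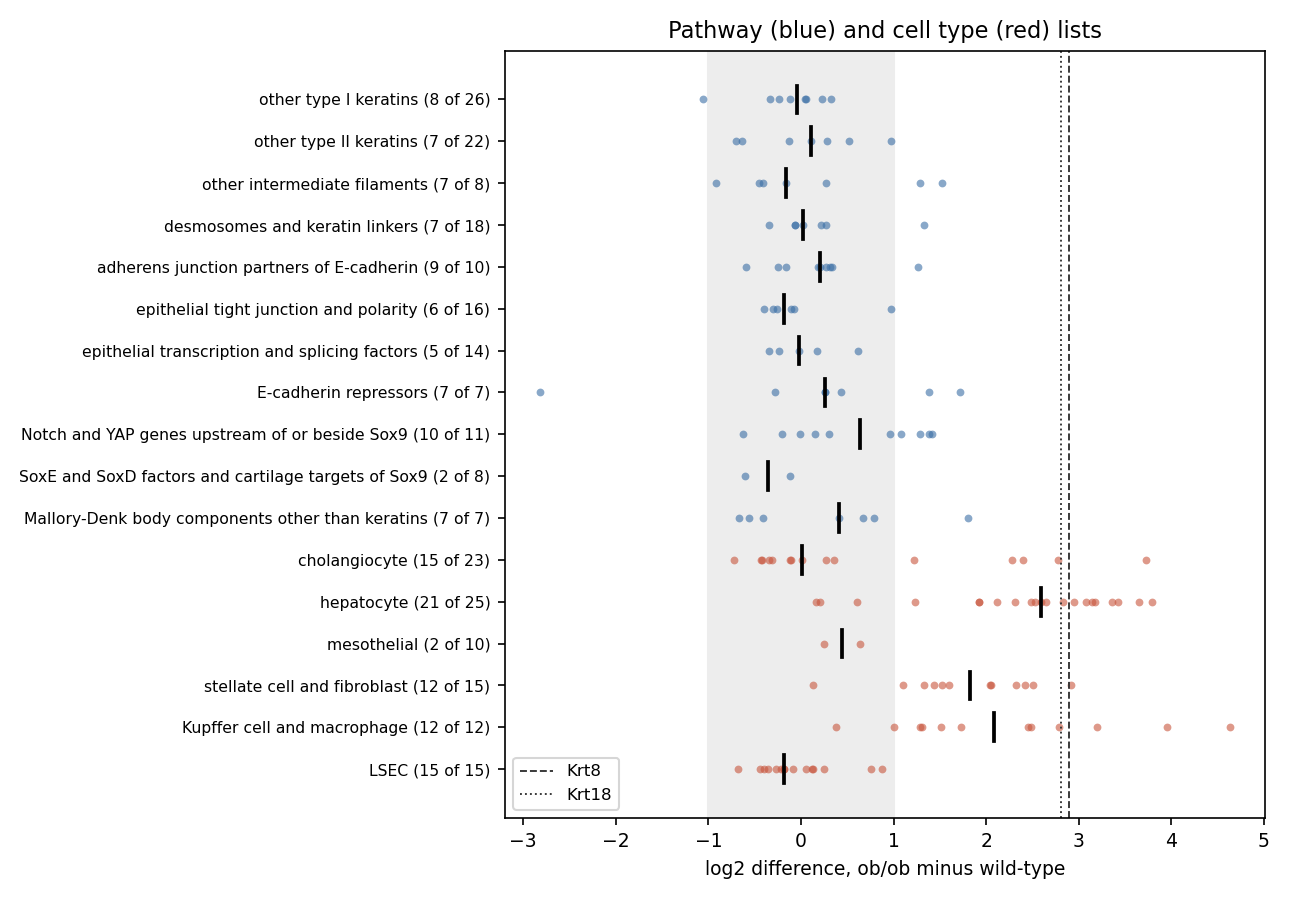
Log2 difference, ob/ob minus wild-type, of each gene measured on both arrays in the pathway lists (blue, without the EpCAM-cleaving proteases) and cell type lists (red), with the number measured of the number listed. Black bars are medians, the grey band is within 2-fold, and the vertical lines mark Krt8 (dashed) and Krt18 (dotted). Both lines fall among the hepatocyte markers, whose median is 2.59, and beyond all points of the pathway lists. They also fall within the ranges of the cholangiocyte, stellate cell and Kupffer cell lists.

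The 3 genes whose difference lay nearest to the mean of Krt8 and Krt18, 2.85, were Slc27a5 at 2.85, Fyb at 2.85 and Ly86 at 2.84. Likeness here is a single difference between 2 arrays, and 58 named genes lay within 0.2 of that mean.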

How the data were processed

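Total RNA of 1 wild-type and 1 ob/ob LSEC preparation was hybridised to a 1-colour Agilent mouse array each. The values in the authors' scanner output are linear intensity per spot. Agilent Feature Extraction 11.0.1.1, named in the submitters' processing notes, subtracted background, removed spatial trends and flagged spots, per the file headers, without scaling arrays to each other. The authors' deposited value table is a ratio, the intensity over the 75th percentile of the same array: the median quotient of the scanner value and the table was 1.00 for both arrays. Its columns have medians of 0.614 and 0.647, and it holds 24868 features well above background on both arrays.

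Control spots were left out, leaving 43020, and spots flagged as non-uniform or population outliers were dropped (148 wild-type, 120 ob/ob, none of a member). Values are log2 intensity minus log2 of the array's 75th percentile. Repeat spots were averaged, and of several probes the one with the highest mean over both arrays stood for the gene. Names were updated through accessions in RefSeq (GRCm38.p6), for 26157 of 39429 probes, and no probe was added to or lost from the members. Among 259 measured probes with 10 spots, single-spot differences had a median SD of 0.052. The error model's median SD was 0.20 per gene, and different probes of a gene differed with an SD of 0.33. These errors are technical and leave out variation from mouse to mouse. Precision is limited by there being 1 array a group.

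No test was run. Genes were counted at 2-fold. The members, lists and rules were chosen with earlier results of these data known. Named are the members, the 4 largest differences and 2 largest bounds per list, and some further markers picked from the cell lists. Vim, Cdh5, Hnf4a, Bicc1, Ccn2, Dsp, Dsg2, Dsc2, Sox4 and Esrp2 are outside that rule and were picked with their values seen. The same holds for Krt17, Krt72, Cgn, Notch2, Hes1 and Rbpj. The calculations were tested on simulated data. Alternatives changed the scaling, the background correction (normexp, offset 50, limma 3.58.1), the spot and detection filters, the probe rule and the source (the authors' value table). Sums without the brightest gene of a marker list were added after seeing the data, as was the naming of Aqp1. Python 3.11.15, pandas 2.3.3 and R 4.3.3 were used. Proteins and exon or UTR annotation on mm9 were not used here, and some listed genes are not reported here.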

Additional observations from a re-analysis of the deposited data

How the results depend on the processing

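Values with no test were called moved where they differed by more than 0.2 on the log2 scale, the median SD of the scanner's error model, and counts where they differed by more than 1.5 times. No paired analysis was possible because each group holds 1 array, and no array could be left out. Neither Krt8 nor Krt18 was lower by 2-fold in any of the 9 alternatives. The other 5 members could be called lower as a group only without the filter on dim probes, where 0 members were. With scaling on the array median, the difference was 2.62 for Krt8 and 2.53 for Krt18, and the log2 bound 0.62 for Krt19, 1.56 for Cdh1 and 0.35 for Sox9, with 976 of all genes lower. Quantile normalization gave the same bounds of 0.62, 1.56 and 0.35. Normexp with the 75th percentile gave 1.31 for Krt8 and 1.76 for Krt18, with 369 of all genes higher and 3818 lower. Normexp with quantile normalization gave 1.75 for Krt8 and 2.01 for Krt18 and bounds of 0.30 for Krt7, 0.31 for Krt19, 0.44 for Cdh1 and 0.084 for Sox9, with 508 genes higher and 130 lower. Without the filter on dim probes the signals as they stand differed by 2.16 for Krt7, 1.77 for Krt19, 2.49 for Cdh1 and 0.96 for Sox9. Then 5 members were at least 2-fold higher, counted either way, with 2679 genes higher and 1634 lower. The authors' value table holds 1 of the 10 Sox9 spots, which differed by 0.21, and no spot of Krt7, Krt19, Epcam or Cdh1. Where a scaled ob/ob signal did not exceed the wild-type limit, no bound was obtained, so values exist in 5 of the 9 alternatives for Krt7, 4 for Epcam, 7 for Krt19 and for Cdh1, and 8 for Sox9. Of the other comparisons of the 7 members and of all genes with an alternative, 64 kept their value, and of the list medians and counts 405 did so and 97 moved. Detection limits Krt7, Epcam and Sox9 most, since their ob/ob signals are near the dimmest of 11.7 that was called above background.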

Other observations

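Probes of a gene disagreed for some epithelial genes. Occludin, Ocln, a tight junction protein, differed by -0.30 by its brighter probe and by -1.78 by the other, so it was lower by more than 2-fold in one of them. The transcription factor Sox4, which endothelial cells express too, gave -0.018, 0.22 and -0.23 by its 3 probes.

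The epithelial splicing factor Esrp1 had signals of 40.0 and 45.7 and differed by -0.34, while its relative Esrp2 did not clear background in either group, at 3.15 and 9.82. The hepatocyte and bile duct factor Foxa2 differed by -0.23 and the epithelial factor Grhl1 by 0.61. Esrp1 and Foxa2 each have a second probe, which did not clear background in either group.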
